A study of Mus musculus with 10 samples.

Results

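Heparan sulfate is a long sugar chain carried by a small set of cell surface and matrix proteins, the heparan sulfate proteoglycans. Xylosyltransferases start the linker on the core protein, exostosins polymerise the chain, and Golgi enzymes then remove acetyl groups, epimerise glucuronic acid and add sulfate at set positions. The sulfate pattern helps to set which growth factors the chain binds, among them fibroblast growth factors, vascular endothelial growth factor and Slit ligands. In the heart these chains sit on cardiomyocytes, endothelium, fibroblasts and basement membranes. The genes described here are those of heparan sulfate synthesis, sulfation and cleavage, the transmembrane syndecans, the lipid-anchored glypicans and the secreted proteoglycans agrin and perlecan, chosen by symbol.

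Of 38 mouse symbols that match the rule in the GENCODE M21 annotation, 26 were listed among the 15498 genes of the E15.5 table and 30 among the 15989 genes of the adult table. In all, 34 were listed in either table and 22 in both, and every listed member passed the filter on low values. Extl3, Gpc6, Hs3st5, Hspg2, Ndst1, Ndst2, Sdc2 and Sulf2 were analysed in the adult only, and Gpc2, Hs3st4, Ndst3 and Ndst4 at E15.5 only. Gpc5, Hs3st2, Hs3st6 and Hs6st3 were not analysed here.

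The study compared hearts of 2 Larp7 knockout models with control hearts on the C57BL/6 background. LARP7 is an RNA-binding protein that stabilises the noncoding RNA 7SK. At E15.5 (embryonic day) there were 3 samples of whole Larp7-/- hearts and 3 of whole Larp7+/+ hearts. At 4 months there were 2 samples of heart apex from Myh6Cre;Larp7f/f mice (mCKO), in which a cardiomyocyte promoter drives Cre, and 2 from Larp7f/f controls without Cre (CTR). Both adult groups carry the floxed alleles, and fibroblasts, endothelium and other cells outside the Cre line keep the gene. Nothing in the labels ties the samples to different animals, so the p-values reflect sample-to-sample spread that may be technical.

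The deposited values are normalised and whole, and each sample sums to between 998498 and 1001508, so sequencing depth is unknown and no counting interval can be given. In nearly every gene, a knockout value and the control value with its number have a constant sum, so a high knockout value comes with a low control value of that number. The SDs of the 2 groups are for that reason nearly equal and not independent. Log2 changes are knockout minus control on the log2(value + 1) scale, from limma with the replicate number as a block and a variance for rounding added, and understate the change of low genes. Samples are called by their replicate numbers in the labels. Levels are compared within a gene only, since the sources used here do not say whether values are per length. Larp7 itself had 45, 54 and 40 in Larp7-/- hearts, against 96, 88 and 103 in Larp7+/+ hearts. In the adult it had 26 and 24 in mCKO, against 26 and 28 in CTR, so its RNA does not check the adult labels. Of 8 cardiomyocyte markers, 8 were listed in the adult and 5 in the embryo, with none at 0.

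The embryonic results turn on 3 genes, Hs3st3b1, Hs3st4 and Sdc4, so the 250 bases before their RefSeq start sites (GRCm38.p6) are shown, with those of Hs3st3a1, the close paralog of Hs3st3b1. Hs3st3b1 is on the minus strand at chr11:63922285-63922534, Hs3st4 on the plus strand at chr7:123982578-123982827, Sdc4 on the minus strand at chr2:164443189-164443438 and Hs3st3a1 on the plus strand at chr11:64435082-64435331. Each is written 5′ to 3′ along the gene's own strand. In GENCODE M21 the Sdc4 gene starts at chr2:164443887, so the Sdc4 window lies inside that gene. RefSeq and GENCODE place its start differently. Capitals mark matches, on either strand, to the GC box GGGCGG, the CCAAT box CCAAT and the E-box CACGTG.
Hs3st3b1: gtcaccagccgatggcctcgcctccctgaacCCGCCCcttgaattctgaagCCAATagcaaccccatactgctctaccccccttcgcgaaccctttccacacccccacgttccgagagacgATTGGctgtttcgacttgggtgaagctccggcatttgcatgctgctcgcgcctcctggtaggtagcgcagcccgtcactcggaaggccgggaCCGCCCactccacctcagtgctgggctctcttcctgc
Hs3st4: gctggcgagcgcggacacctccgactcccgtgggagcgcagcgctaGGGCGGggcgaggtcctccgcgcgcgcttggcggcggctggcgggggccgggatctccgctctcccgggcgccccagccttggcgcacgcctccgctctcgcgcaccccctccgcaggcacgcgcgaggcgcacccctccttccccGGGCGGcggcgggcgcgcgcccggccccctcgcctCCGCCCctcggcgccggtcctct
Sdc4: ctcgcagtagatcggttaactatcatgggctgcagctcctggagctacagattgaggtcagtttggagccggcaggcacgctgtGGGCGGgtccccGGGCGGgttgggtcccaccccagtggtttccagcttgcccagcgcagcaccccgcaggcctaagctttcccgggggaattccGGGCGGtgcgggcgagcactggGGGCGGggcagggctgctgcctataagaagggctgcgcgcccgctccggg
Hs3st3a1: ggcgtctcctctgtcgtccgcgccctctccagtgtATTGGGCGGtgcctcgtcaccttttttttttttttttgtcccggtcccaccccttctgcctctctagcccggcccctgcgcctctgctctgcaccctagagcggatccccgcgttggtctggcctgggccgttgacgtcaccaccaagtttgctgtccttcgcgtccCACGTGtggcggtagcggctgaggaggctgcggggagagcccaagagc

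The GC box occurred 2 times before Hs3st3b1, 3 times before Hs3st4, 4 times before Sdc4 and 1 time before Hs3st3a1. It was present in 32.7% of 32851 RefSeq promoter windows of the same length. The CCAAT box occurred 2 times before Hs3st3b1 and 1 time before Hs3st3a1, where it overlaps the GC box, against 33.8% of all windows. Hs3st3a1 held 1 E-box, against 6.02% of all windows. None of these 4 windows held TATAAA (12.4% of all) or TGANTCA (6.75% of all). GC content was 62.4%, 82% and 68% for Hs3st3b1, Hs3st4 and Sdc4 and 64% for Hs3st3a1, with a median of 52.4% over all windows. A match is a description of letters, not a site.

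At E15.5 the question was how these genes differ in the developing heart without Larp7. Hs3st3b1, Hs3st4 and Sdc4 were higher in Larp7-/- hearts and passed the test, and 0 members passed as lower. That is 3 of 26 members, or 11.5%, beside 0.529% of the 13609 genes tested that were called higher, 0.103% called lower and 0.632% called in either direction (limma, Benjamini-Hochberg adjusted p under 0.05). At an unadjusted p under 0.05, 10 members, or 38.5%, were higher and 0 lower, beside 10.3% and 3.62% of all tested genes. Over all genes 72 were called higher and 14 lower, or 26 and 13 with median-of-ratios scaling. Of the 26 members 24 had a positive log2 change, or 92.3% beside 60.4% of all tested genes, and the median change was 0.40 beside 0.11. In 15 members, or 57.7%, all knockout values lay above all control values, beside 19.3% of all tested genes, and in 0 they lay below, beside 8.75%. These shares are descriptions, since the members were chosen with earlier results of these data known. Each gene has 2 residual degrees of freedom here, beside a median of 27.54 from spread pooled over genes. The SE and p of most genes thus rest mainly on that pooled spread.

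The enzymes of 3-O-sulfation, the last and rarest sulfation step of the chain, held the 2 highest changes. Hs3st3b1 (chr11:63885792-63922290, minus strand, GENCODE M21 on GRCm38) had 44, 47 and 39 in Larp7-/- hearts, against 12, 10 and 18 in Larp7+/+ hearts. The groups did not overlap, and number 3 had the lowest knockout and the highest control value. Its means were 43.3 ± 4.04 in Larp7-/- and 13.3 ± 4.16 in Larp7+/+ (SD, n = 3 each), a log2 change of 1.66 (SE 0.21, 95% interval 1.24 to 2.09, adjusted p = 0.00012, limma). It kept its call when any 1 sample was left out, where the block also takes the same-numbered sample out of the estimate. It lost it in the 3 settings that called 0 genes of the whole table, which were no rounding variance, genes averaging at least 10, and eBayes without its trend and robust options (adjusted p between 0.332 and 0.529). For Hs3st3b1 the authors' deposited table gives 1.64 on the log2 scale, an unadjusted p of 6.25e-05 and no adjusted p.

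Hs3st4, a second 3-O-sulfotransferase, known mainly from neurons, lies at chr7:123982869-124398989 on the plus strand. It had 11, 12 and 12 in Larp7-/- hearts, against 5, 4 and 4 in Larp7+/+ hearts, without overlap. The log2 change was 1.25 (SE 0.27, adjusted p = 0.0227, limma), or 1.20 with an adjusted p of 0.0529 after median-of-ratios scaling, which ends the call, as did 2 of the settings that called 0 genes. The antisense gene Gm27040 overlaps its start, and the sources used here do not say whether counting used strand. The authors' deposited table gives 1.36 on the log2 scale for Hs3st4, unadjusted p = 0.0529.

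The other 3-O-sulfotransferases stood low in both groups. Hs3st3a1 had 3, 3 and 2 in Larp7-/- hearts, against 1, 1 and 2 in Larp7+/+ hearts (log2 0.67, adjusted p = 0.413, limma). Hs3st1, which makes the antithrombin-binding form of the chain, had 6 in each Larp7-/- heart and 5 in each Larp7+/+ heart (log2 0.22, 95% interval -0.36 to 0.80). Hs3st3a1 lies 513 kb from Hs3st3b1 on chromosome 11, with 1 protein-coding gene between them. Their longest protein-coding transcripts share an exact run of 401 bases, and 8.56% of the 50-base windows of Hs3st3b1 occur in Hs3st3a1. Reads from that stretch cannot be assigned to either gene by sequence. No 50-base window of Hs3st4 occurs in Hs3st3b1.

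**Figure D1:**
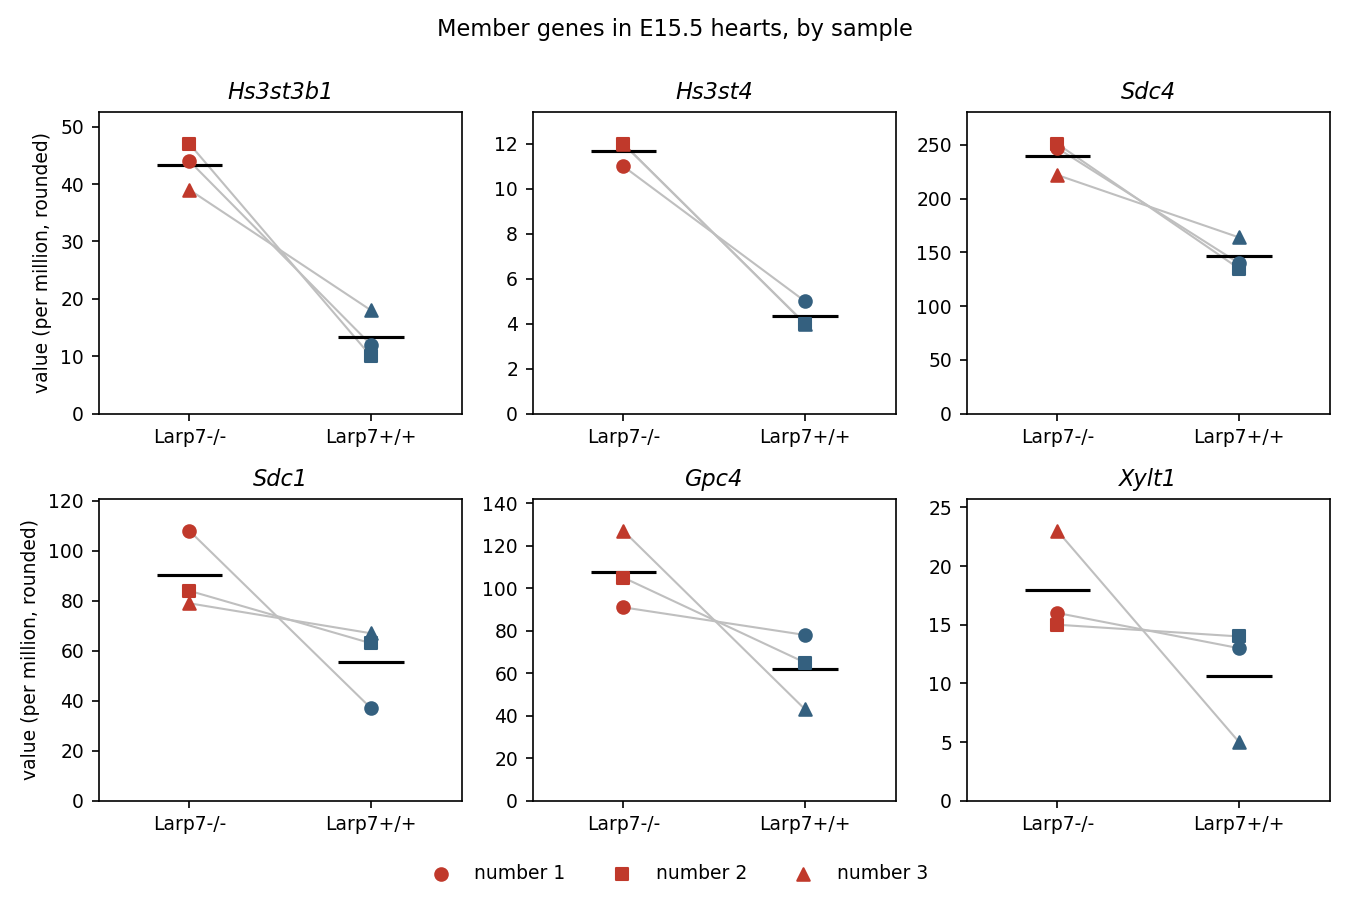
Normalised values (axes from 0) of 6 member genes in the 3 Larp7-/- and 3 Larp7+/+ hearts at E15.5, with grey lines joining the same replicate number and black bars at group means. All knockout values lie above all control values in each gene, the joined lines cross, and Sdc1 differs most in number 1 while Gpc4 and Xylt1 differ most in number 3.

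Among the syndecans, which anchor heparan sulfate in the membrane, Sdc4 passed the test. Sdc4, a partner of integrins at focal adhesions, lies at chr2:164424247-164443887 on the minus strand. It had 247, 251 and 222 in Larp7-/- hearts, against 140, 135 and 164 in Larp7+/+ hearts. The groups did not overlap, and the difference was smallest in number 3. The log2 change was 0.71 (SE 0.17, adjusted p = 0.0374, limma), or 1.64-fold on the value + 1 scale. It was not called without number 1 of Larp7-/- or Larp7+/+ (adjusted p = 0.252 and 0.259, limma), with median-of-ratios scaling (log2 0.65, adjusted p = 0.0786) or with a pseudocount of 0.5 (adjusted p = 0.0569), nor in the 3 settings that called 0 genes. The authors' deposited table gives 0.65 on the log2 scale for Sdc4, adjusted p = 0.0384.

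Sdc1, the main syndecan of epithelia, had 108, 84 and 79 in Larp7-/- hearts, against 37, 63 and 67 in Larp7+/+ hearts. Number 1 stood apart in both groups, and the change of 0.72 did not pass the test (adjusted p = 0.275, limma). Without number 2 or number 3 of either group it passed (adjusted p between 0.000624 and 0.00135), as it did with no filter on low values (0.00234). Those settings called 313 to 601 of all tested genes, in place of 86. Markers of stratified epithelium stood apart in number 1 of Larp7-/-, with 7 of 8 listed and none at 0. They summed to 250, 77 and 82 in Larp7-/- hearts, against 106, 69 and 66 in Larp7+/+ hearts. In 6 of these 7 markers the number 1 Larp7+/+ value fits the constant sum only with a changed sign, which is so for no member. The sum of 106 therefore cannot be read as a level. Their part in the Sdc1 values was not tested. Sdc3 had 98, 98 and 113 in Larp7-/- hearts, against 95, 95 and 81 in Larp7+/+ hearts, a log2 change of 0.19 with a 95% interval of -0.14 to 0.52.

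The glypicans went both ways in value and none passed the test. Gpc4 had 91, 105 and 127 in Larp7-/- hearts, against 78, 65 and 43 in Larp7+/+ hearts (log2 0.81, adjusted p = 0.187, limma). Gpc3, the glypican whose loss causes an overgrowth syndrome in humans, had 423, 447 and 510 in Larp7-/- hearts, against 384, 360 and 297 in Larp7+/+ hearts (log2 0.41, adjusted p = 0.284). In both genes the groups did not overlap and number 3 had the widest gap. Gpc4 passed without number 1 or number 2 of either group, with log2 changes of 0.88 to 1.11 (adjusted p between 0.000901 and 0.00354), and with no filter on low values (adjusted p = 0.000336). Those settings called 213 to 601 of all tested genes, in place of 86. Gpc1 had 158, 146 and 110 in Larp7-/- hearts, against 156, 168 and 204 in Larp7+/+ hearts, overlapping, and its change of -0.36 was the lowest of the 26 (95% interval -0.72 to 0.013). Gpc2 had 4, 4 and 3 in Larp7-/-, against 3, 2 and 3 in Larp7+/+.

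Within each group, number 3 also held the end of the range of 6 marker list sums, those of cardiomyocytes, fibroblasts, epicardium, smooth muscle and pericytes, macrophages and erythroid cells. Cardiomyocyte markers summed to 16189, 14262 and 12848 in Larp7-/- hearts, against 17596, 19525 and 20938 in Larp7+/+ hearts, lower in the knockout without overlap. Of the fibroblast markers, 5 of 8 were listed, none at 0, and they summed to 4693, 4561 and 5476 in Larp7-/- hearts, against 4466, 4601 and 3683 in Larp7+/+ hearts. Of the 26 members 11 had their highest Larp7-/- value and their lowest Larp7+/+ value in number 3, beside 20.5% of all tested genes. These were Agrn, Ext1, Glce, Gpc3, Gpc4, Hpse, Hs6st1, Sdc3, Sulf1, Xylt1 and Xylt2. The reverse held in 6, which were Extl2, Gpc1, Hs3st3a1, Hs3st3b1, Sdc1 and Sdc4, beside 20.7% of all tested genes. The part of these lists in the members' values was not tested. In bulk tissue, fewer cells of a type and less RNA per cell cannot be told apart.

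None of the synthesis enzymes outside 3-O-sulfation passed the test. Xylt2, one of the enzymes that start the linker, had 38, 41 and 42 in Larp7-/- hearts, against 32, 29 and 28 in Larp7+/+ hearts (log2 0.43, adjusted p = 0.254, limma). Xylt1 had 16, 15 and 23 in Larp7-/-, against 13, 14 and 5 in Larp7+/+. Its change of 0.79 was carried by number 3 and did not pass (adjusted p = 0.477), whereas without number 2 of either group it did (adjusted p = 0.00775 and 0.00764), as it did with no filter (0.0276). Those settings called 493 to 601 of all tested genes, in place of 86. Ext2, a subunit of the chain polymerase, had 90, 100 and 98 in Larp7-/- hearts, against 81, 70 and 72 in Larp7+/+ hearts (log2 0.37, adjusted p = 0.293). Its partner Ext1 had 65, 62 and 68 in Larp7-/-, against 67, 69 and 64 in Larp7+/+, a change of -0.036 with a 95% interval of -0.36 to 0.29. The groups overlapped for Ext1 and not for Ext2, and a difference between Ext1 and Ext2 was not tested.

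Extl2, a transferase related to the exostosins, had 61, 69 and 59 in Larp7-/- hearts, against 46, 39 and 48 in Larp7+/+ hearts (log2 0.50, adjusted p = 0.153, limma). Extl1 had 7, 8 and 8 in Larp7-/-, against 6, 5 and 4 in Larp7+/+. Glce, the epimerase that makes iduronic acid, had 30, 32 and 34 in Larp7-/- hearts, against 24, 23 and 20 in Larp7+/+ hearts (log2 0.50, adjusted p = 0.205, limma). Extl2 and Glce did not overlap between groups. With no replicate block Glce passed (adjusted p = 0.0412), and so did Xylt2 and Extl2. That setting called 604 of all tested genes, in place of 86. Hs2st1, the 2-O-sulfotransferase, had 66, 50 and 54 in Larp7-/-, against 40, 56 and 51 in Larp7+/+, with overlap (log2 0.21, 95% interval -0.15 to 0.57). The 6-O-sulfotransferases also overlapped: Hs6st1 averaged 86.7 ± 11.0 in Larp7-/- and 77.7 ± 10.5 in Larp7+/+, and Hs6st2 22.3 ± 3.79 in Larp7-/- and 16.7 ± 2.89 in Larp7+/+ (SD, n = 3 each). The N-deacetylases Ndst3 and Ndst4 were at 2 or less in every sample.

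Enzymes that edit or cut the finished chain were not called at E15.5. Sulf1, an extracellular sulfatase that removes 6-O-sulfate, had 119, 144 and 178 in Larp7-/- hearts, against 150, 125 and 90 in Larp7+/+ hearts. The groups overlapped, with number 1 lower by 31 in the knockout and number 3 higher by 88 (log2 0.28, 95% interval -0.24 to 0.80). Without number 3 of either group its change was -0.064. Heparanase, Hpse, was at 4 or less in every sample. Agrn, the basement membrane proteoglycan agrin, had 290, 282 and 307 in Larp7-/- hearts, against 256, 264 and 239 in Larp7+/+ hearts, without overlap (log2 0.21, adjusted p = 0.603, limma).

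**Figure D2:**
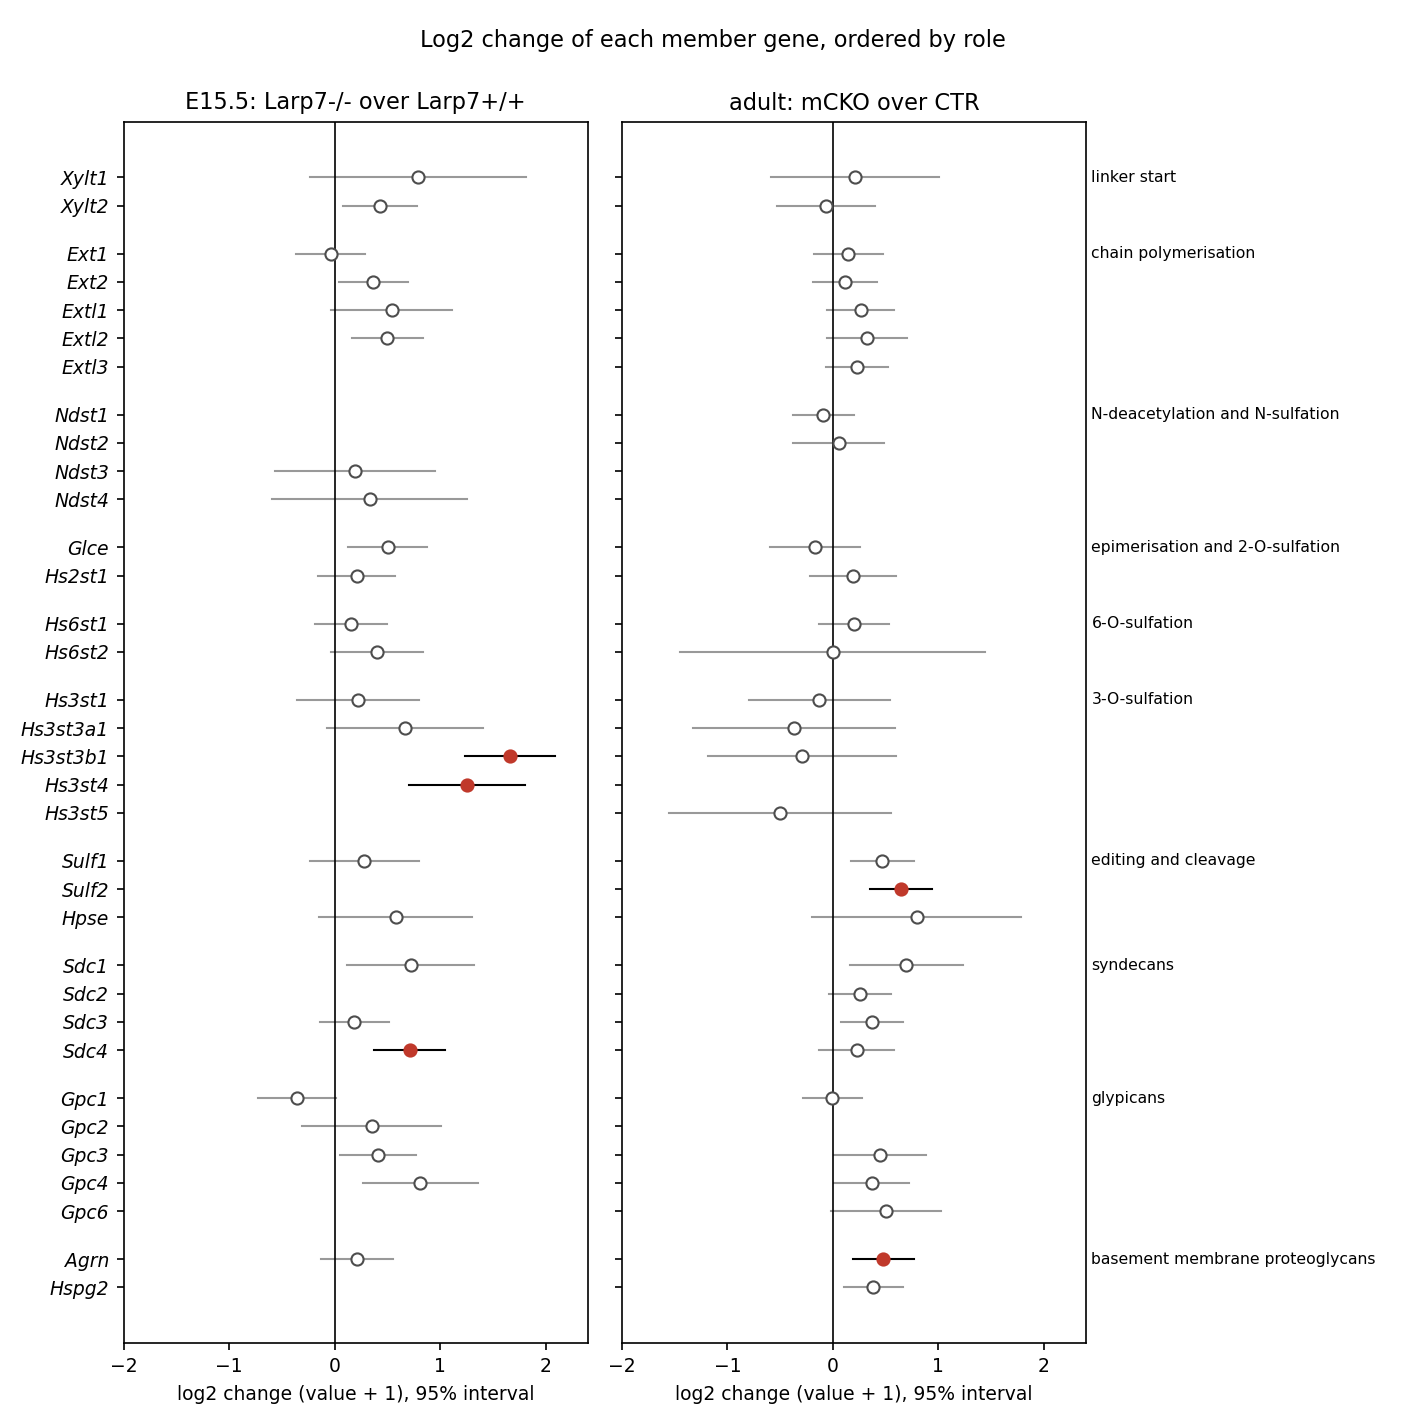
Log2 change on the value + 1 scale with its 95% interval for every listed member, ordered by role, at E15.5 (left, Larp7-/- over Larp7+/+) and in the adult (right, mCKO over CTR); filled red points passed an adjusted p under 0.05 and open points did not. Hs3st3b1, at 1.66, and Hs3st4, at 1.25, lie farthest to the right at E15.5. The 3-O-sulfotransferases listed in the adult, at 5 or less in every sample, have negative values with intervals that cross 0. A difference between the models was not tested.

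Neighbouring parts of the pathway at E15.5 showed 1 called gene, where 0.529% of all tested genes were called higher. In the list of linker enzymes and precursor supply, 0 of 10 tested genes were called (1 at an unadjusted p under 0.05) and the median change was -0.13. Of the lysosomal enzymes that break heparan sulfate down 0 of 7 were called (1 unadjusted), with a median of 0.046, and of the chondroitin and dermatan sulfate enzymes 0 of 12 (5 unadjusted), with a median of 0.31. The other heparan sulfate proteoglycans had 0 of 6 called (1 unadjusted) and a median of 0.34, and the partners and sheddases of syndecans and glypicans 0 of 8 (2 unadjusted) and a median of 0.30. Of heparin-binding ligands and their receptors 1 of 21 was called higher (5 unadjusted), with a median of 0.35. Over all tested genes the median was 0.11. At an unadjusted p under 0.05, 10.3% of them were higher and 3.62% lower (limma). Knockout values all lay above control values in 66.7% of chondroitin and dermatan genes, 50% of partners and sheddases and 42.9% of ligands and receptors. The share was 33.3% in other proteoglycans, 28.6% in lysosomal enzymes and 20% in linker and precursor genes. It was 57.7% in the members and 19.3% over all tested genes. The called gene, Slit2, a secreted guidance ligand that binds heparan sulfate, had 184, 181 and 199 in Larp7-/- hearts, against 113, 116 and 99 in Larp7+/+ hearts (log2 0.78, SE 0.16, adjusted p = 0.0185, limma). Slit2 was not called in the settings that called 0 genes of the whole table, and was not followed in the others.

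In the adult the question was how these genes differ where Cre from the Myh6 promoter targets floxed Larp7. Sulf2 and Agrn were higher in mCKO and passed the test, and 0 members passed as lower. That is 2 of 30 members, or 6.67%, beside 2.34% of the 14835 genes tested that were called higher, 0.95% called lower and 3.29% called in either direction (limma, adjusted p under 0.05). At an unadjusted p under 0.05, 8 members were higher and 0 lower, beside 9.05% and 3.3% of all tested genes. Over all genes 347 were called higher and 141 lower, or 285 and 210 with median-of-ratios scaling. Of the 30 members 21 had a positive change, or 70% beside 57.9% of all tested genes, with a median of 0.22 beside 0.076. In 10 members, or 33.3%, both mCKO values lay above both CTR values, beside 29.3% of all tested genes. Each gene has 1 residual degree of freedom here, so its SE and p rest almost wholly on spread pooled over genes and not on its own.

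Sulf2, the second extracellular 6-O-sulfatase, lies at chr2:166073089-166155663 on the minus strand, and its end overlaps that of Ncoa3 on the other strand. It had 106 and 81 in mCKO, against 48 and 72 in CTR. The groups did not overlap, but the difference was 58 in number 1 and 9 in number 2. The log2 change was 0.65 (SE 0.15, adjusted p = 0.0013, limma). The call was lost with no replicate block (adjusted p = 0.229), no rounding variance (0.62), neither of these (0.429), eBayes without trend and robust options (0.427) and without number 1 of CTR (log2 0.36, adjusted p = 0.0735). The authors' deposited table gives 0.58 on the log2 scale for Sulf2, unadjusted p = 0.119.

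Agrn (chr4:156165290-156197488, minus strand) had 122 and 94 in mCKO, against 64 and 92 in CTR. The difference was 58 in number 1 and 2 in number 2, so that the groups are separate by a margin of 2. Its log2 change was 0.48 (SE 0.15, adjusted p = 0.0426, limma). It lost the call with median-of-ratios scaling (log2 0.41, adjusted p = 0.0789), with no replicate block (0.301), without number 1 of mCKO (log2 0.29, adjusted p = 0.247), without number 1 of CTR (log2 0.22, adjusted p = 0.442) and in 3 other settings (between 0.533 and 0.702). The authors' deposited table gives an unadjusted p of 0.229.

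Hspg2, or perlecan, another basement membrane proteoglycan, had 664 and 509 in mCKO, against 374 and 530 in CTR. Number 1 was higher and number 2 lower in mCKO, and the change of 0.38 did not pass (adjusted p = 0.129, limma). The log2 change of Hspg2 was 0.58 without number 2 of mCKO and 0.64 without number 2 of CTR. Each of these fits leaves 1 sample in a group. Sdc3 had the same form, with 105 and 79 in mCKO, against 58 and 85 in CTR (log2 0.37, adjusted p = 0.195, limma). Its change was 0.57 without number 2 of mCKO and 0.64 without number 2 of CTR. Sulf1 was more even, with 56 and 54 in mCKO, against 39 and 40 in CTR (log2 0.47, adjusted p = 0.0627). It was called with no replicate block, with neither the block nor the rounding variance, and over genes averaging at least 10. With any 1 sample left out, in fits that have no block, its change was 0.44 to 0.49.

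**Figure D3:**
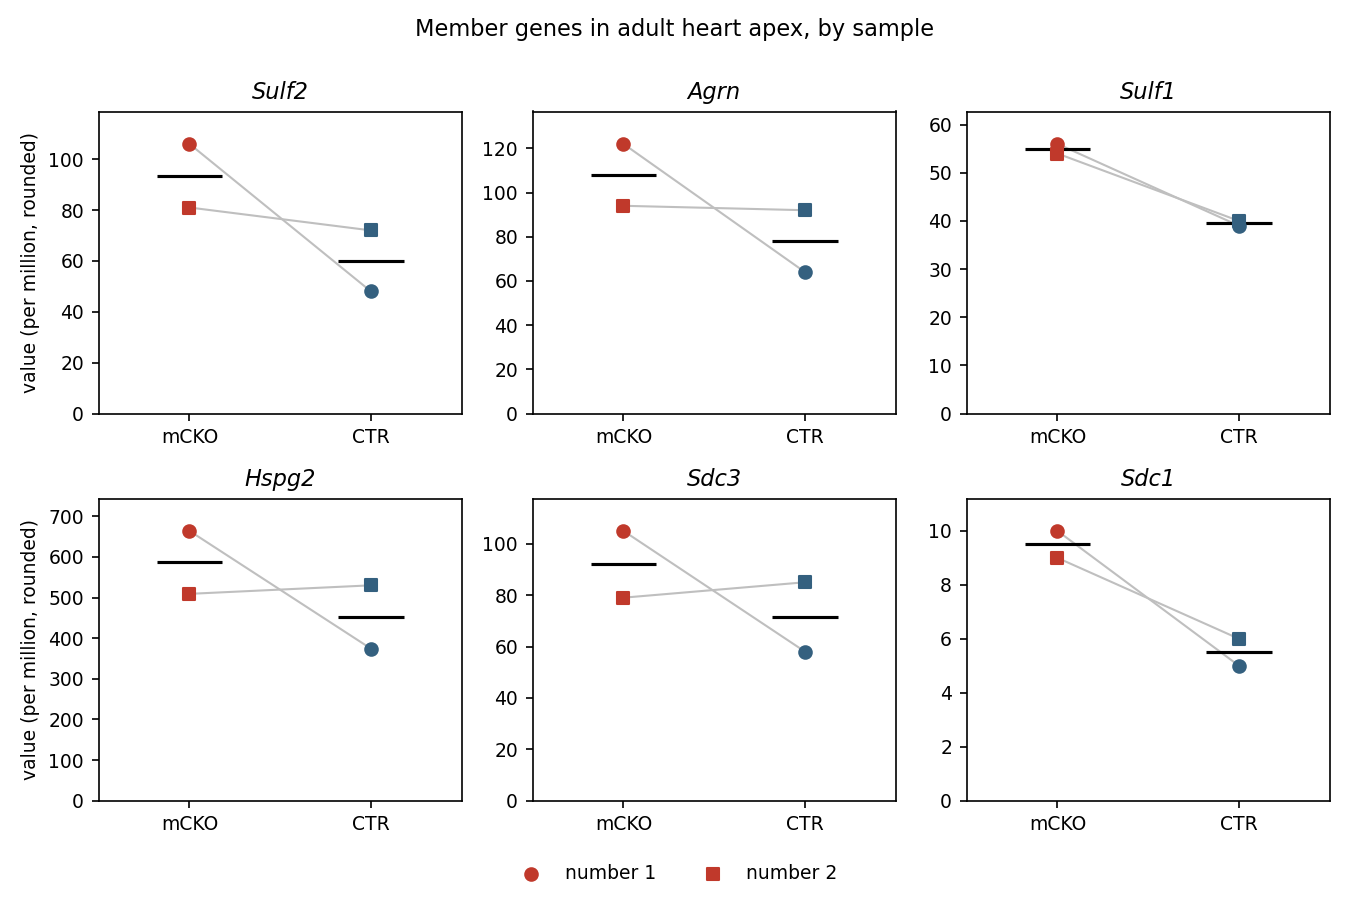
Normalised values (axes from 0) of 6 member genes in the 2 mCKO and 2 CTR samples of adult heart apex, with grey lines joining the same replicate number and black bars at group means. In Sulf2, Agrn, Hspg2 and Sdc3 the difference lies in number 1, whereas Sulf1 and Sdc1 differ by similar amounts in both numbers.

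The summed fibroblast markers also differed more in number 1. All 8 were listed, none at 0, and they summed to 2587 and 2270 in mCKO, against 1185 and 1500 in CTR. Col1a1, a fibrillar collagen chain of fibroblasts, had 245 and 163 in mCKO, against 25 and 107 in CTR. Dcn, a matrix proteoglycan, differed more in number 2, with 965 and 1069 in mCKO, against 836 and 733 in CTR. Pdgfra, a fibroblast receptor, overlapped, with 50 and 44 in mCKO, against 44 and 51 in CTR. Epicardial markers, 6 of 6 listed, summed to 73 and 108 in mCKO, against 60 and 24 in CTR, and differed more in number 2. Macrophage markers, 7 of 7 listed, summed to 629 and 630 in mCKO, against 532 and 531 in CTR, without overlap. The 8 endothelial markers summed to 785 and 816 in mCKO, against 895 and 865 in CTR, the other direction, and the 8 cardiomyocyte markers to 57792 and 57293 in mCKO, against 61201 and 61699 in CTR. The part of these cells in the values of Sulf2, Agrn, Hspg2 and Sdc3 was not tested.

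The other proteoglycans of the adult apex were not called. Sdc2 had 82 and 81 in mCKO, against 68 and 68 in CTR (log2 0.26, adjusted p = 0.5, limma), and was called with neither the replicate block nor the rounding variance (adjusted p = 0.0057). Sdc1 had 10 and 9 in mCKO, against 5 and 6 in CTR, without overlap (log2 0.69, adjusted p = 0.182, limma). Without number 2 of CTR, which leaves 1 CTR sample, its change was 0.81. Sdc4, called in the embryo, had 20 and 26 in mCKO, against 22 and 17 in CTR, with overlap (log2 0.23, 95% interval -0.13 to 0.58). Gpc1 had 369 and 342 in mCKO, against 343 and 371 in CTR, a change of -0.0060 with a 95% interval of -0.28 to 0.27. Gpc3 had 13 and 15 in mCKO, against 11 and 9 in CTR, and Gpc4 25 and 22 in mCKO, against 17 and 19 in CTR, both without overlap and not called (adjusted p = 0.373 and 0.377). Gpc6 had 11 and 8 in mCKO, against 5 and 8 in CTR (log2 0.50, adjusted p = 0.437, limma). Without number 2 of CTR, which leaves 1 CTR sample, its change was 0.79.

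The chain-building enzymes of the adult had small changes and 0 of them were called. Ndst1, the main N-deacetylase and N-sulfotransferase of most tissues, had 68 and 70 in mCKO, against 74 and 73 in CTR (log2 -0.090, 95% interval -0.38 to 0.20). It was the 1 member whose mCKO values all lay below its CTR values, beside 12.8% of all tested genes, and its locus overlaps Rps14 on the other strand. Ndst2 had 13 and 12 in mCKO and 12 in both CTR samples. Ext1 had 32 and 29 in mCKO, against 26 and 29 in CTR, and Ext2 46 and 42 in mCKO, against 39 and 42 in CTR. Extl1 had 40 and 31 in mCKO, against 25 and 34 in CTR (log2 0.26, adjusted p = 0.574, limma). Its change was 0.44 without number 2 of mCKO and 0.48 without number 2 of CTR. Each of these fits leaves 1 sample in a group. Glce had 13 and 10 in mCKO, against 12 and 14 in CTR, and Hs2st1 16 and 14 in mCKO, against 12 and 14 in CTR. Extl2, Extl3 and Hs6st1 had changes of 0.32, 0.23 and 0.20, with adjusted p between 0.537 and 0.761, and Xylt2 of -0.063. Hs3st1, Hs3st3a1, Hs3st3b1, Hs3st5, Hs6st2, Hpse and Xylt1 were at 5 or less in every adult sample. Hs3st3b1, the gene with the highest embryonic change, had 1 and 3 in mCKO, against 3 and 2 in CTR. Whether its change differs between the models was not tested.

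In the lists around the pathway, 5 adult genes were called, all higher, where 2.34% of all tested genes were called higher. At an unadjusted p under 0.05, 9.05% of all tested genes were higher and 3.3% lower (limma). These list genes were not followed across the settings, as the members were. Among the linker and precursor genes 1 of 14 was called, with a list median of 0.023. This was Ugdh, which makes the glucuronic acid donor, with 19 and 22 in mCKO, against 14 and 12 in CTR (log2 0.62, adjusted p = 0.0476, limma). Ugdh at E15.5 had 160, 186 and 149 in Larp7-/- hearts, against 106, 80 and 117 in Larp7+/+ hearts, without overlap and short of the threshold (log2 0.71, adjusted p = 0.0565). Of the other proteoglycans 1 of 7 was called, with a median of 0.23: Cd44, the hyaluronan receptor, had 20 and 22 in mCKO, against 12 and 10 in CTR (log2 0.88, adjusted p = 0.00111). Of the heparin-binding ligands and receptors 2 of 27 were called, with a median of 0.057. Hbegf, a heparin-binding ligand of the EGF receptor, had 22 in both mCKO samples and 12 in both CTR samples (log2 0.82, adjusted p = 0.00207, limma). Met, the receptor of hepatocyte growth factor, had 4 and 5 in mCKO, against 1 and 1 in CTR (log2 1.45, adjusted p = 0.0331, limma). These Met values are near the floor of whole-number data. Chpf, a chondroitin polymerising factor, was the 1 called of 14 chondroitin and dermatan genes (median 0.28), with 42 and 39 in mCKO, against 26 and 30 in CTR (log2 0.52, adjusted p = 0.0431, limma). Lysosomal breakdown enzymes (0 of 8, with 0 at an unadjusted p under 0.05, median -0.034) and partners and sheddases (0 of 11, with 1 unadjusted, median 0.23) had none called.

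The levels of these genes in adult apex and in whole embryonic heart stood far apart in many cases. The tables were scaled separately and the tissue differs, so values are given side by side with no test. Of the 22 members in both tables, adult CTR values lay below all Larp7+/+ embryonic values in 16, above them in 2, and overlapped in 4. The same shares over all genes were not counted, so these counts cannot be read as particular to the members. Gpc3 had 11 and 9 in adult CTR, against 384, 360 and 297 in E15.5 Larp7+/+, a ratio of means of 0.0288. Sdc1 averaged 5.5 in adult CTR and 55.7 in E15.5 Larp7+/+, Sdc4 19.5 in adult CTR and 146.3 in E15.5 Larp7+/+, and Hs6st2 0.5 in adult CTR and 16.7 in E15.5 Larp7+/+. The genes higher in the adult were Gpc1, at 343 and 371 in adult CTR against 156, 168 and 204 in E15.5 Larp7+/+, and Extl1, at 25 and 34 in adult CTR against 6, 5 and 4 in E15.5 Larp7+/+. Sdc3, Hs3st1, Hs3st3a1 and Hpse overlapped between the ages. Of the called embryonic genes in both tables, Hs3st3b1 and Sdc4 stood at 0.188 and 0.133 times their embryonic control level in the adult controls.

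**Figure D4:**
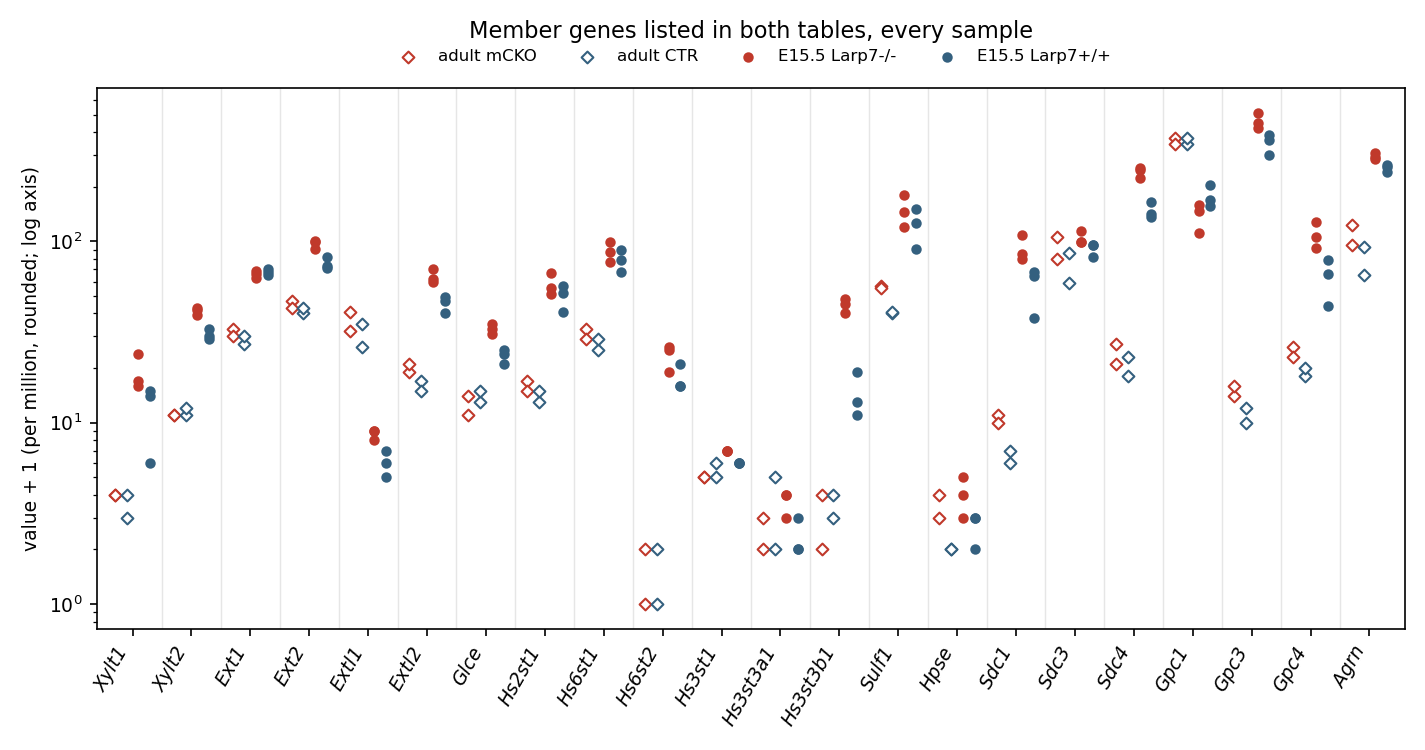
Normalised value + 1 (log axis) of the 22 members listed in both tables, every sample shown, with adult mCKO and CTR as open diamonds left of E15.5 Larp7-/- and Larp7+/+ as filled circles for each gene. Adult control values lie below the embryonic control values in 16 genes, with the widest gap in Gpc3 and Hs6st2, and above them in Gpc1 and Extl1. The same shares over all genes were not counted.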

How the data were processed

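RNA from whole E15.5 hearts and adult heart apex was sequenced, and the authors deposited 1 table per model. Per the submitters' processing notes, HISAT2, HTSeq and the mm10 build were used; no versions are stated. The deposited score of a gene and sample is a per-million value rounded to whole numbers; its scaling and adjustment are not given in the sources used here. Per the file headers, the deposited log2 fold changes and p-values are in columns with DESeq2's names.

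Same-numbered knockout and control values add to a fixed total, within 2, in 15317 of 15498 E15.5 genes and 15962 of 15989 adult genes. Another 180 and 27 genes met it once 1 value was given a negative sign, and 0 members are among them. Across genes, same-numbered deviations from the group means correlate at -0.807 in the adult and -0.816 to -0.798 at E15.5, by this construction and not by a pairing in the labels.

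limma 3.58.1 (R 4.3.3) fitted each table on the log2(value + 1) scale, over genes reaching 1 in at least as many samples as a group holds. Replicate number was a block, a rounding variance of 0.0833 (value scale) was added, and eBayes used its trend and robust options. Residual degrees of freedom are 1 per adult gene and 2 per embryonic gene. P-values were adjusted by Benjamini-Hochberg over all tested genes at 0.05. The script was run on simulated data in which the spread of a gene was set by its mean alone. That run does not show how firm the calls given here are. The median change over all genes was 0.107 and 0.0764, or 0.0438 and 0.0175 with median-of-ratios scaling.

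Promoter windows were searched for 5 motifs on both strands. The members, the 15 gene lists and the fit were chosen with earlier results of these data known. Values in every sample were given for members called in either table, for members with no overlap, a change of at least 0.5 and a mean of at least 5, and for core genes. Others were added after their values were seen. Coordinates are from GENCODE M21 and promoter sequences from RefSeq (GRCm38.p6). Alternatives were the block, rounding variance, pseudocount, filter, scaling, prior and each sample left out.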

Additional observations from a re-analysis of the deposited data

How the results depend on the processing

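The number of members called higher at E15.5 was 3, and moved to 6 with no replicate block, 0 with no rounding variance, 5 with neither the block nor rounding variance, 6 with no filter on low values, 0 with a mean of at least 10, 1 with median-of-ratios scaling and 0 with eBayes without trend and robust options. It was 3 to 6 when 1 sample was left out. In these E15.5 fits the block also takes the same-numbered sample out of the estimate. Leaving out either sample of a number therefore gives the same log2 change. In the 3 settings with 0 calls, 7, 9 and 7 members and 1422, 1100 and 1166 of all genes differed at an unadjusted p under 0.05 (limma). Over all E15.5 genes the same settings called 604, 0, 1040, 601, 0, 39 and 0 in place of 86, a pseudocount of 0.5 called 46, and leaving out 1 sample 213 to 506. In the adult the 2 higher members became 1 with no replicate block (Sulf1), 0 with no rounding variance, 1 with median-of-ratios scaling (Sulf2), 3 over genes with a mean of at least 10 (Sulf2, Agrn and Sulf1), 0 with eBayes without trend and robust options (2 and 3 members at an unadjusted p under 0.05 where 0 were called), and 1 to 8 when 1 sample was left out. With neither the block nor rounding variance 2 were called, Sulf1 and Sdc2, and neither Sulf2 nor Agrn. Of all adult genes, 409 were called with no replicate block and 495 with median-of-ratios scaling. A mean of at least 10 called 516, and eBayes without trend and robust options 610, where 0 members were called. Over all adult genes 1130 were called with no rounding variance and 1622 with neither, in place of 488, and 626 to 1284 when 1 sample was left out. Adult fits without a sample have no replicate block, since 1 pair leaves no residual degrees of freedom, and a lone sample is assumed to vary like the others. No member was called lower by limma in any of these settings, with 0 or 1 at an unadjusted p under 0.05. Over all members listed, the log2 change turned sign for 8 results when 1 sample was left out. At E15.5 these were Ext1 (-0.098 to 0.022, positive without either number 2 sample), Hs2st1 (-0.040 to 0.39, negative without either number 1 sample), Hs6st1 (-0.035 to 0.34) and Sulf1 (-0.064 to 0.59), the last 2 negative without either number 3 sample. In the adult they were Glce (-0.34 to 0.0037) and Gpc1 (-0.062 to 0.0505), positive without number 2 of mCKO and, for Gpc1, of CTR, Hs3st3a1 (-1.03 to 0.29, positive without number 2 of CTR) and Hs3st3b1 (-0.79 to 0.21, positive without number 1 of mCKO). Members at low values reached 0 at 1 end of their range, which was 0 to 0.29 for Ndst3 and 0 to 0.5 for Ndst4 at E15.5, and in the adult -0.26 to 0 for Hs3st1, -1 to 0 for Hs3st5, -0.13 to 0 for Xylt2, 0 to 0.11 for Ndst2 and 0 to 0.42 for Xylt1. Adult Hs6st2, at a change of 0, ranged from -0.5 to 0.5. Ndst2 also turned to -0.0046 with median-of-ratios scaling. The cause of these moves was not tested.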

Other observations

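Tgfbr3, or betaglycan, a transforming growth factor beta coreceptor that can carry heparan sulfate, was singled out after its values were seen. It had 207, 190 and 126 in Larp7-/- hearts, against 25, 43 and 106 in Larp7+/+ hearts. The groups did not overlap, with a log2 change of 1.79 and a wide gap between numbers, and it did not pass the test (adjusted p = 0.505, limma). Adamts1, a matrix protease that can shed syndecans, had 147, 150 and 186 in Larp7-/- hearts, against 112, 110 and 74 in Larp7+/+ hearts (log2 0.72, adjusted p = 0.0791). Fgf9, a heparin-binding growth factor, had 3 and 5 in mCKO, against 8 and 7 in CTR, without overlap (log2 -0.79, adjusted p = 0.174).

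Among the marker lists at E15.5, Pdgfra, a receptor of fibroblasts, was the 1 called of 5 fibroblast markers (list median 0.33) and Rgs5, a pericyte gene, the 1 called, lower, of 3 smooth muscle and pericyte markers (median -0.30). Lad1 was the 1 called of 7 stratified epithelium markers (median 0.43). Of these 7, 6 hold a value that fits the constant sum only with a changed sign, so their median cannot be read as a change. The cardiomyocyte (0 of 5 called, median -0.43), endothelial (0 of 8, 0.23), epicardial (0 of 3, 0.40), macrophage (0 of 4, 0.078) and erythroid (0 of 5, 0.32) lists had none called. In the adult Aldh1a2 was the 1 called of 6 epicardial markers (median 1.06) and Lad1 the 1 called of 4 epithelium markers (median -0.066). The cardiomyocyte (0 of 8, -0.085), endothelial (0 of 8, -0.067), fibroblast (0 of 8, 0.87), smooth muscle and pericyte (0 of 7, -0.057), macrophage (0 of 7, 0.23) and erythroid (0 of 5, 1.23) lists had none. All 5 adult erythroid genes hold a value that fits the constant sum only with a changed sign, so the median of 1.23 cannot be read as a change. Of the 6 lung and thymus markers, 1 was listed at E15.5, below the filter, and 0 in the adult. The called markers were not followed across the settings. Those at E15.5 were not called in the settings that called 0 genes of the whole table.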
